A study of Gallus gallus with 20 samples.

Results

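The genes described here encode substrate adaptors of cullin-RING ubiquitin ligases in the chicken. They were chosen by symbol: every FBXL, FBXO, FBXW, ASB, KLHL and KBTBD gene followed by a number, leaving out FBXO30, FBXO32 and FBXO40. The rule found 100 of the 17108 genes in the files, namely 45 F-box genes (13 FBXL, 26 FBXO and 6 FBXW), 16 ASB genes and 39 Kelch genes (31 KLHL and 8 KBTBD). The rule itself uses no expression value, but it was chosen with earlier results of these data known.

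RNA was sequenced from the pectoralis major, the breast muscle, and from the liver of Ross 708 male broilers at post-hatch day 35. The 4 groups were breast muscle of birds on an L-methionine-deficient diet, breast muscle of birds on the control diet with L-methionine, liver on the deficient diet and liver on the control diet, with 5 libraries each. The diets were fed between weeks 3 and 5 of age, and all groups shared strain, sex and age. The comparisons ask which transcripts a methionine shortage alters in each tissue. Whether a breast and a liver library with 1 replicate number share a bird is not given in the labels. Each library was bulk tissue, so fewer cells of a type and less RNA per cell cannot be told apart.

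A cullin-RING ligase joins ubiquitin to proteins that it holds through an exchangeable adaptor. F-box proteins bind SKP1 on CUL1, ASB proteins bind the elongin dimer on CUL5 through their SOCS box, and Kelch proteins with a BTB domain bind CUL3 directly. The protein NEDD8, joined to the cullin, switches the ligase on, and the COP9 signalosome removes it again. In striated muscle such adaptors take part in building and clearing the sarcomere, and loss of several Kelch members causes myopathy in humans or mice.

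Depth was close between diets, with 1.40 to 1.85 assigned gigabases in deficient breast muscle, 1.50 to 2.11 in control breast muscle, 1.65 to 2.09 in deficient liver and 1.51 to 2.75 in control liver. These sums are coverage times transcript length, since the files hold FPKM, a level relative to transcript length and library size, and no read counts. The tissue labels matched the markers: the summed level of 9 myocyte genes was 31507 to 52307 scaled FPKM in deficient and 17980 to 29568 in control breast muscle, against 0.773 to 1.42 in 9 liver libraries. Liver control 1 stood apart with a myocyte sum of 149.9 scaled FPKM. The summed level of 15 hepatocyte genes was 697 to 2604 scaled FPKM in deficient and 1891 to 3198 in control breast muscle, with 1 gene at 0 in all control breast libraries, against 24062 to 66721 in deficient and 35395 to 60174 in control liver. Of the 5 hepatocyte genes tested in breast muscle 3 were called lower on the deficient diet (TTR, HPX and APOA1), and their part in the changes of the adaptors was not tested. Mitochondrial genes took 63.1% of the FPKM sum in liver control 4 and 36.1% in liver deficient 1. No 2 libraries held identical values, and no member had a failed estimate. Unless a tissue comparison is named, levels are FPKM scaled within a tissue by median ratios. The scaling factors did not overlap between diets in breast muscle, with 0.772 to 0.994 in deficient and 1.03 to 1.28 in control libraries.

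Of the 100 members, 81 reached a mean of 1 scaled FPKM in breast muscle and 70 in liver, which was the minimum for a test there. Both tissues passed for 64 members, breast muscle alone for 17 and liver alone for 6, and 13 passed in neither. The split varied by family. Of the 16 ASB genes 6 passed in breast muscle alone, as did 6 of 31 KLHL genes and 4 of 8 KBTBD genes, against 1 of 13 FBXL and 0 of 26 FBXO and 6 FBXW genes.

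**Figure D1:**
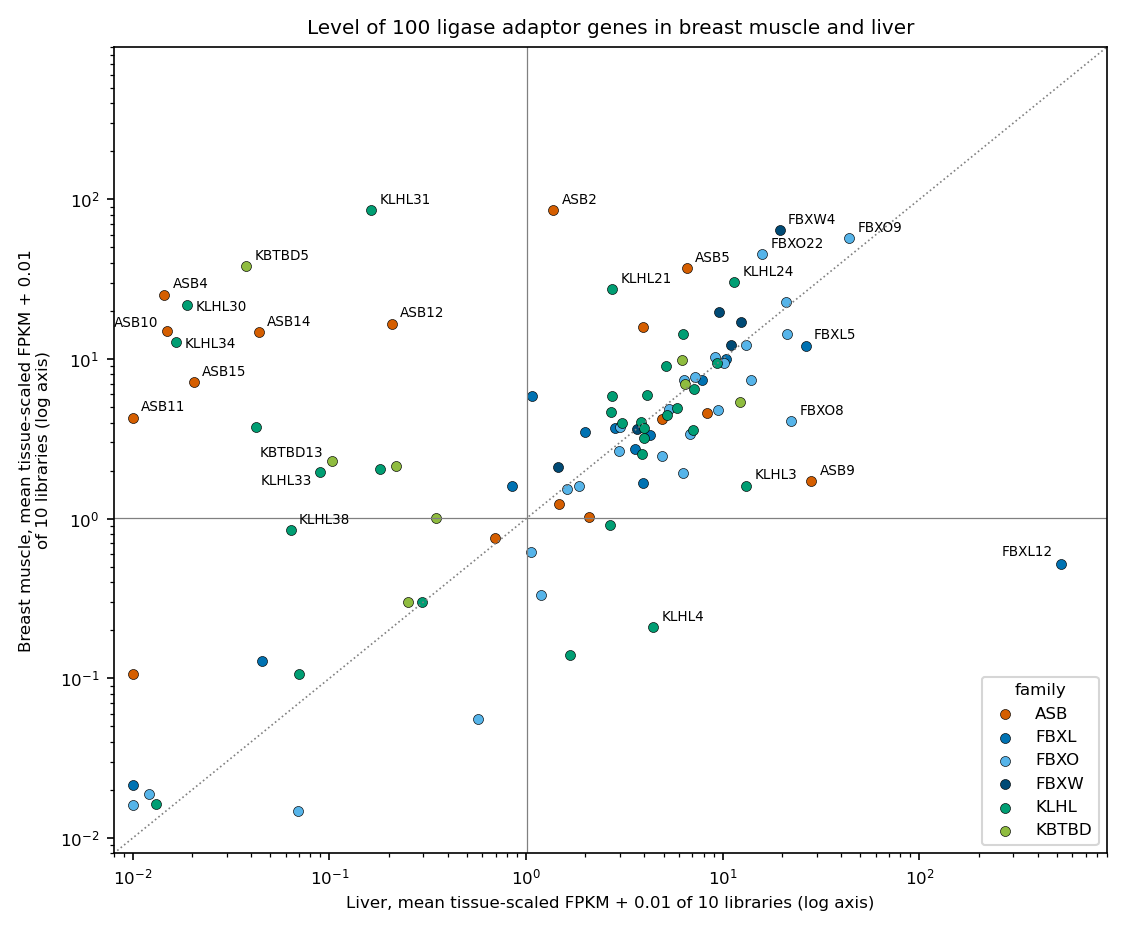
Mean level of the 100 members over the 10 libraries of each tissue, in tissue-scaled FPKM with 0.01 added, liver on the x axis and breast muscle on the y axis, both log axes. Colours mark the 6 families, solid lines mark the minimum for a test and the dotted line marks equal levels; ASB and Kelch genes fill the upper left, and FBXL12 stands alone at the lower right.

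In deficient breast muscle the highest level belonged to ASB2 at 128 ± 48 scaled FPKM, followed by KLHL31 at 116 ± 21.4, FBXW4 at 76.8 ± 19.8, FBXO9 at 71.4 ± 9.10 and FBXO22 at 54.6 ± 9.77 (SD, n = 5 each). In control breast muscle KLHL31 had 55 ± 15.3, FBXW4 50.8 ± 4.20, ASB2 43.6 ± 12.8, FBXO9 42.7 ± 5.42 and ASB5 37.2 ± 8.32 scaled FPKM (SD, n = 5 each). Neighbours in both orders differed by less than the larger of their SD, except KLHL31 from FBXW4 and FBXO9 from FBXO22 on the deficient diet. KBTBD5, the gene called KLHL40 in humans, where it stabilises thin filament proteins and its loss causes nemaline myopathy, had 39.8 ± 14.9 in deficient and 36.3 ± 9.04 in control breast muscle. In liver FBXL12 had 540 ± 55.7 on the deficient and 516 ± 73.1 scaled FPKM on the control diet. The annotated FBXL12 model is 222 bases long and lies on the unplaced scaffold JH376279.1, 165667 to 167199 (galGal4), and FPKM of so short a model is uncertain. After it came FBXO9 with 44.1 ± 6.96 on the deficient and 43.6 ± 8.67 on the control diet, ASB9 with 22.5 ± 4.73 on the deficient and 33.9 ± 10.8 on the control diet, and FBXL5 with 27.8 ± 3.01 on the deficient and 24.9 ± 3.77 on the control diet (SD, n = 5 each).

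Summed over a family, ASB genes had 309 ± 85.5 scaled FPKM in deficient and 162 ± 19.2 in control breast muscle, and KLHL genes 332 ± 33.0 in deficient and 219 ± 25.0 in control breast muscle (SD, n = 5 each). The FBXO sums were 256 ± 21.5 in deficient and 196 ± 10.6 in control breast muscle, the FBXW sums 138 ± 25.6 in deficient and 99.0 ± 6.73 in control breast muscle. The KBTBD sums, 71.3 ± 14.7 in deficient and 60.5 ± 9.17 in control breast muscle, lay within 1 SD of each other. A few abundant members carry each sum. The breast sums also rest on the scaling, whose factors did not overlap between diets. Without scaling the median log2 change in breast muscle was -0.21 over FBXO genes and -0.25 over all genes. Sums by family were not taken without scaling, so a rise of the FBXO total is not shown apart from it. In liver the 99 members other than FBXL12 summed to 548 ± 18.2 on the deficient and 540 ± 26.6 on the control diet, within 1 SD of each other.

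On the deficient diet 23 members rose and 3 fell in breast muscle, of 81 tested, where 28.1% of all genes were called. Rises took 28.4% of the tested members, where 14.2% of all 10164 tested genes were called higher, and falls took 3.70%, where 13.9% were called lower. The median log2 change was 0.16 over the 81 members and 0.02 over all genes. A gene was called at an adjusted p under 0.05 in limma, on the log2(scaled FPKM + 1) scale, which understates changes of low genes. The 5 deficient libraries all lay above the 5 controls for 14 members, where 8.89% of all genes did so, and all below for 2 members, where 9.46% did so. At an unadjusted p under 0.05 stood 35 members, where 40.6% of all genes did. The direction was read relative to the typical gene. Without scaling the median log2 change was -0.25 over all genes and -0.10 over the members. Then 12 members were called higher and 5 lower, where 323 of all 10164 genes were called higher and 3188 lower. Of all genes called without scaling 9.20% were higher. Leaving out breast control 2 lowered the count to 16 called of 79 members, 14 higher and 2 lower. There 845 of all 10087 genes were called higher and 996 lower.

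**Figure D2:**
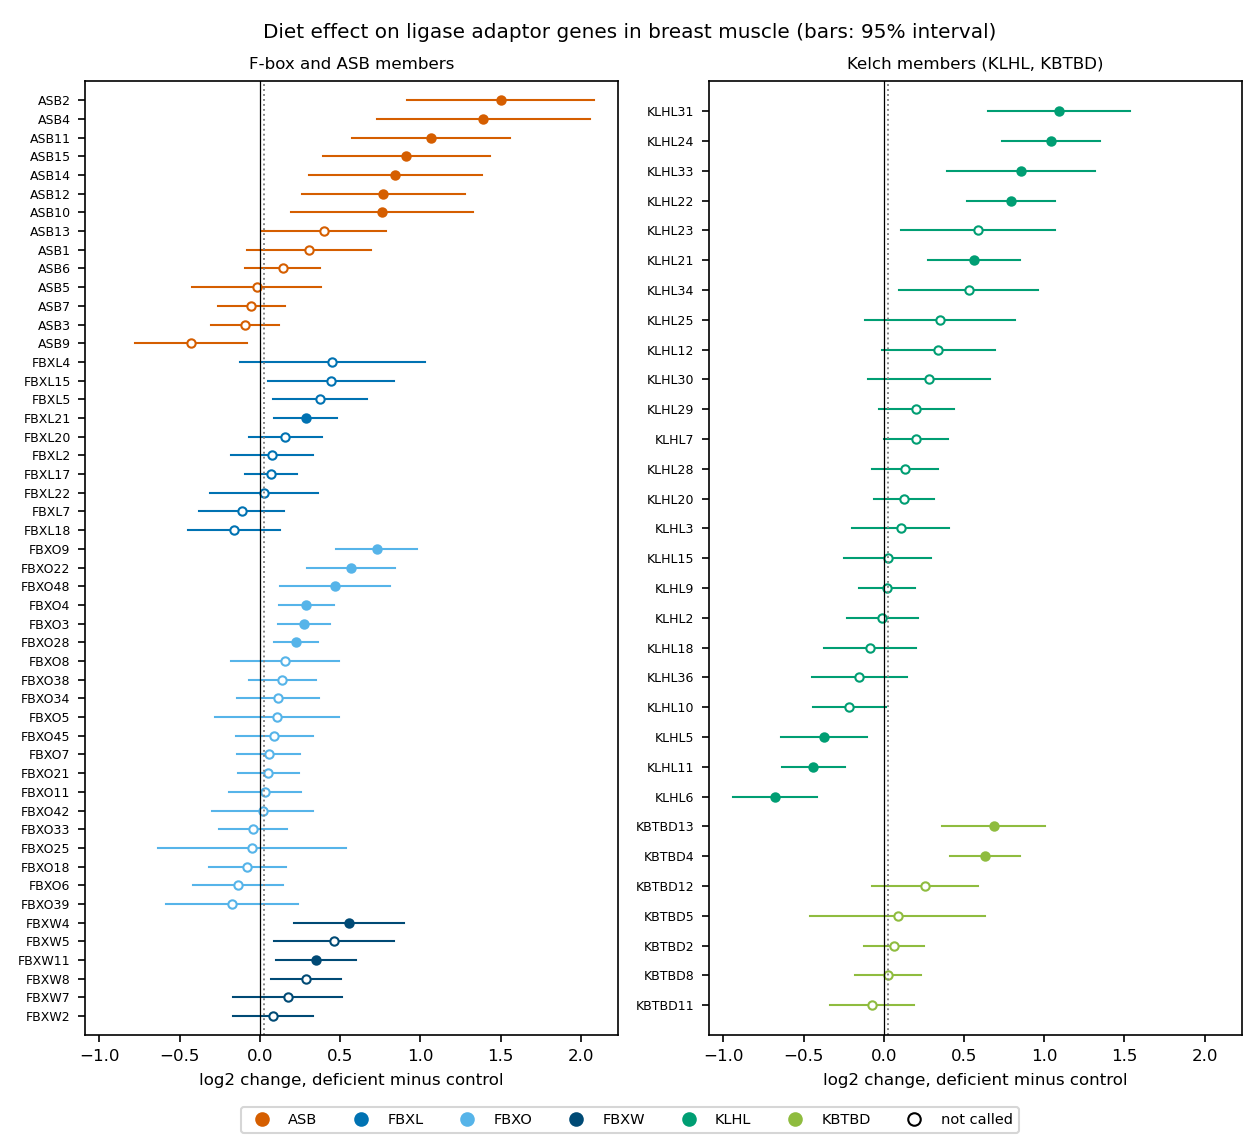
Log2 change of the 81 members tested in breast muscle, deficient minus control, with 95% intervals, F-box and ASB members on the left and Kelch members on the right. Filled points passed the adjusted p threshold, the dotted line is the median of all genes, and 23 of the 26 filled points lie to the right of 0; without scaling between libraries FBXL21, FBXO28 and FBXO3 lie to the left of it.

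The rises were spread over the families. Of the tested ASB genes 7 of 14 rose, against 6 of 20 FBXO, 2 of 6 FBXW, 1 of 10 FBXL, 5 of 24 KLHL and 2 of 7 KBTBD genes. Without breast control 2 the counts were 4 of 13 ASB, 3 of 20 FBXO, 0 of 6 FBXW, 0 of 10 FBXL, 5 of 24 KLHL and 2 of 6 KBTBD genes. Without scaling 4 ASB, 2 FBXO, 0 FBXW, 0 FBXL, 4 KLHL and 2 KBTBD genes were called higher, and 4 KLHL genes and 1 ASB gene lower. Of all 10164 genes 323 were then called higher and 3188 lower. The median log2 change was 0.58 for ASB, 0.10 for FBXO, 0.32 for FBXW, 0.12 for FBXL, 0.17 for KLHL and 0.09 for KBTBD genes. Without scaling the medians were 0.29 for ASB and 0.029 for FBXW genes and turned negative for FBXO (-0.21), FBXL (-0.15), KLHL (-0.09) and KBTBD genes (-0.23). Among members tested in breast muscle alone 9 of 17 rose (52.9%), where 14.8% of the 1029 genes tested there alone were called higher. Of the 64 members tested in both tissues 14 rose (21.9%), where 14.2% of 9135 such genes were called higher. Levels of 9 myocyte markers moved the same way, with 9 of 9 called higher and a median log2 change of 0.80. Their part in the rises of the adaptors was not tested. Deficient library 3, which had the highest myocyte sum, was the highest of its group for 15 of the 23 risers. Control library 2, with the lowest myocyte sum, was the lowest of its group for 15 of them. These were also the breast libraries with the lowest scaling factor, 0.772 in deficient library 3, and the highest, 1.28 in control library 2, and the part of the factors was not tested. The 23 risers were chosen by the diet difference in these same libraries. How often the 2 libraries were highest or lowest over all genes is not given, so the counts cannot be called particular to the risers.

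ASB2, on chromosome 5 (44628421 to 44646454, galGal4, as all positions here), had the largest rise. It is known in mice for acting in muscle differentiation and in the control of muscle mass. The deficient breast libraries had 102, 81.8, 169, 189 and 97.1 scaled FPKM, against 30.5, 32.0, 60.8, 43.6 and 51.1 in control breast muscle. Every deficient library lay above every control, and deficient 3 and 4 were highest. The log2 change was 1.50 ± 0.26 (SE), 2.83-fold, with adjusted p = 0.00336 by limma. ASB4, on chromosome 2 (24010593 to 24020518), followed with 28.5, 27.0, 64.4, 37.4 and 27.6 scaled FPKM in deficient and 19.5, 6.92, 15, 9.28 and 16.8 in control breast muscle. Deficient 3 was far above its group, and the diets did not overlap. Its log2 change was 1.39 ± 0.30 (adjusted p = 0.00823 by limma), and the annotated gene covers the microRNA gene gga-mir-6601.

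ASB11, on chromosome 1 (121483020 to 121494829), had 3.02, 6.57, 9.03, 6.76 and 5.66 scaled FPKM in deficient libraries and 2.43, 1.79, 3.10, 1.57 and 2.87 in controls. In zebrafish it acts on Notch signalling and on muscle progenitors. Only deficient 1 reached down among the controls, and the log2 change was 1.07 ± 0.22 (adjusted p = 0.00715 by limma). ASB15 had 8.33, 10.8, 11, 11.4 and 6.25 in deficient and 5.16, 2.59, 5.66, 3.09 and 7.35 scaled FPKM in control breast muscle. Deficient 5 lay below control 5, so the diets overlapped, and the log2 change was 0.91 (adjusted p = 0.0169).

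The other rising ASB genes overlapped between diets. ASB14 averaged 18.9 ± 4.81 in deficient and 10.4 ± 4.21 scaled FPKM in control breast muscle, ASB12 21.5 ± 7.06 in deficient and 11.8 ± 2.26 in control, and ASB10, a glaucoma-linked gene in humans, 19.1 ± 6.37 in deficient and 10.9 ± 3.70 in control breast muscle (SD, n = 5 each). Their log2 changes were 0.84, 0.77 and 0.76, with adjusted p = 0.0269, 0.0311 and 0.0482 by limma. These calls ended when single libraries were left out, any of 5 for ASB14, 6 for ASB12 and 8 for ASB10. Breast control 2 was 1 of them each time (adjusted p = 0.0676, 0.0766 and 0.102), and without scaling the calls ended as well (adjusted p = 0.0685, 0.0782 and 0.0968). ASB5 and ASB9 were not called. ASB5, as abundant as ASB4 in deficient muscle, averaged 36.8 ± 8.45 in deficient and 37.2 ± 8.32 in control breast muscle, a log2 change of -0.02 (adjusted p = 0.948). ASB9, which in humans binds the brain-type creatine kinase, had a log2 change of -0.43 (adjusted p = 0.0629).

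**Figure D3:**
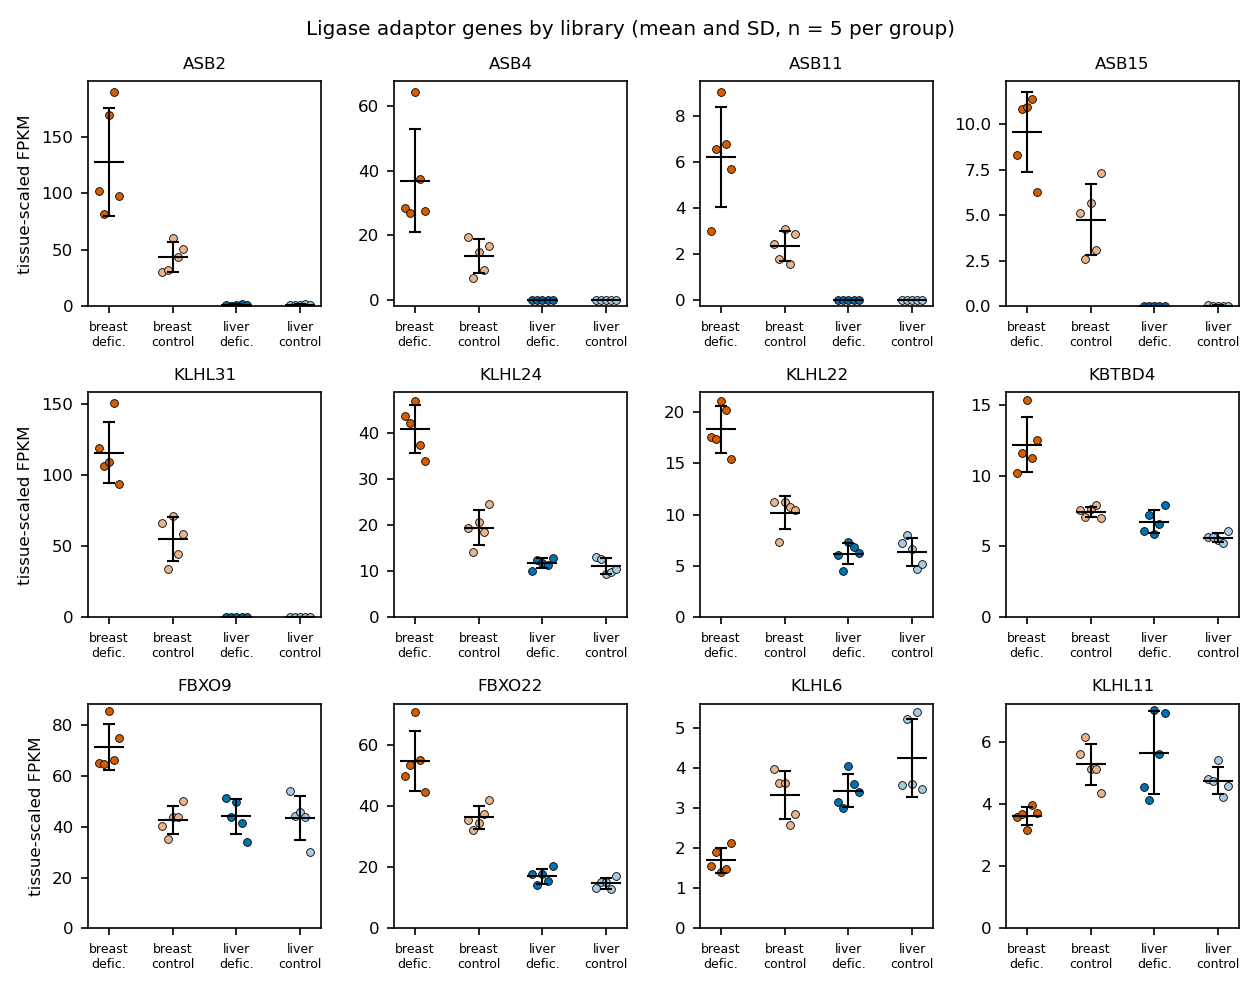
Tissue-scaled FPKM of 12 members in every library, deficient left of control within breast muscle and within liver; points are libraries, bars mean and SD (n = 5 per group). In breast muscle the first 10 panels are higher on the deficient diet, with overlap for ASB11 and ASB15, and the panels of KLHL6 and KLHL11 are lower.

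Among tested Kelch genes KLHL31 and KLHL24 had the largest log2 changes on the log2(scaled FPKM + 1) scale. That scale holds down the changes of low genes such as KLHL33, whose mean also more than doubled. KLHL31, whose loss in mice causes a congenital myopathy, lies on chromosome 3 (87554346 to 87560990). It had 119, 107, 109, 151 and 93.7 scaled FPKM in deficient and 66.4, 34.3, 71.1, 44.5 and 58.5 in control breast muscle. The groups did not overlap, and the log2 change was 1.09 ± 0.20 (adjusted p = 0.00409 by limma). KLHL24, on chromosome 9 (2102436 to 2111626), is known in humans for acting on keratin and desmin filaments. Its levels were 43.7, 42.2, 46.9, 37.3 and 34.0 in deficient and 19.4, 14.2, 20.7, 18.6 and 24.5 scaled FPKM in control libraries. The lowest deficient library lay above the highest control, and the log2 change of 1.04 ± 0.14 had the smallest adjusted p of all members (0.00136).

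KLHL22, on chromosome 15 (8282545 to 8297517), targets in human cells DEPDC5, a brake on the amino acid branch of mTORC1 signalling. Deficient breast muscle had 17.5, 17.4, 21.1, 20.2 and 15.4 scaled FPKM, against 11.2, 7.32, 11.3, 10.7 and 10.5 in controls. The groups were apart, with a log2 change of 0.79 ± 0.13 (adjusted p = 0.00224 by limma). KBTBD4, on chromosome 5 (22095231 to 22100669), which targets chromatin corepressor proteins in human cells, had 10.2, 11.6, 15.4, 11.3 and 12.5 in deficient and 7.58, 7.11, 7.65, 7.89 and 7.03 scaled FPKM in control libraries. Its controls lay close together and below every deficient library, and the log2 change was 0.63 ± 0.10 (adjusted p = 0.00224). KLHL21, which acts in mitosis in human cells, averaged 33.0 ± 5.79 in deficient and 21.8 ± 2.1 in control breast muscle (log2 change 0.56, adjusted p = 0.0112). Its call was lost without scaling (adjusted p = 0.141).

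The remaining rising Kelch genes were low. KBTBD13, mutated in a human nemaline myopathy, averaged 3.03 ± 0.58 in deficient and 1.52 ± 0.45 scaled FPKM in control breast muscle, and KLHL33 averaged 2.79 ± 0.97 in deficient and 1.10 ± 0.51 in control breast muscle (SD, n = 5 each). Their log2 changes were 0.68 (adjusted p = 0.00764) and 0.86 (adjusted p = 0.0138), and neither gene overlapped between diets. The mean read depth over KLHL33 was 4.27 to 6.43 in deficient and 1.20 to 3.33 in control libraries. The muscle Kelch genes KBTBD5, KLHL30 and KLHL34 were not called, with log2 changes of 0.09, 0.28 and 0.53 (adjusted p = 0.821, 0.249 and 0.0654 by limma). KLHL38 lies 28145 bases from FBXO32 with no annotated gene between, and its mean was below the minimum for a test. It had 0.806, 1.37, 1.96, 0.815 and 1.30 in deficient and 0.315, 0.508, 0.598, 0.269 and 0.417 scaled FPKM in control breast muscle, with no overlap. With no filter on low values its log2 change was 0.64 (adjusted p = 0.0113).

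Of the F-box genes FBXO9 rose most. It lies on chromosome 3 (87729801 to 87747291) and acts in human cells on subunits that stabilise the mTOR kinase. Deficient breast muscle had 65.2, 64.7, 85.9, 66.2 and 74.9 scaled FPKM, against 40.4, 35.3, 44.0, 43.8 and 50.1 in controls. The groups were apart, and the log2 change was 0.73 ± 0.12 (adjusted p = 0.00229 by limma). FBXO22, which targets histone demethylases of the KDM4 family in human cells, had 49.9, 53.3, 70.6, 54.9 and 44.4 in deficient and 35.3, 32.1, 34.5, 37.3 and 41.8 scaled FPKM in control libraries. Again no deficient library reached the controls, and the log2 change was 0.57 ± 0.12 (adjusted p = 0.00857). FBXW4, linked to limb patterning in mice, averaged 76.8 ± 19.8 in deficient and 50.8 ± 4.20 in control breast muscle (log2 change 0.56, adjusted p = 0.0235). Its call ended without breast control 1 (adjusted p = 0.0506), without breast control 2 (adjusted p = 0.0581) or without scaling (adjusted p = 0.128).

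The other F-box rises were small. FBXO48 had a log2 change of 0.47 (adjusted p = 0.0461), FBXW11, a receptor of phosphorylated beta-catenin and IkappaB, 0.35 (adjusted p = 0.0412), and FBXO4 0.29 (adjusted p = 0.0188). FBXL21, which acts on cryptochromes of the clock in mice, had 0.28 (adjusted p = 0.0381), FBXO3 0.28 (adjusted p = 0.0197) and FBXO28 0.22 (adjusted p = 0.0238). FBXO3, FBXO4 and FBXO28 did not overlap between diets, while the other 3 did. None of these 6 calls held without scaling (adjusted p = 0.357, 0.853, 0.923, 0.927, 0.767 and 0.564 in the order given), and FBXL21, FBXO3 and FBXO28 then had log2 changes of -0.018, -0.037 and -0.070. Without breast control 2 the calls of FBXO48, FBXW11, FBXO4, FBXL21 and FBXO28 were lost (adjusted p = 0.0920, 0.0985, 0.0526, 0.0763 and 0.0648). For FBXO28 breast control 3 also ended the call (adjusted p = 0.0531), for FBXW11 any of 8 libraries and for FBXO48 and FBXL21 any of 7.

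All 3 members that fell were KLHL genes. KLHL6, on chromosome 9 (2069219 to 2087633), is needed for germinal centre B cells in mice and is the direct neighbour of KLHL24, 14802 bases away. It had 1.56, 1.92, 1.41, 1.49 and 2.14 scaled FPKM in deficient and 3.98, 3.64, 3.63, 2.58 and 2.85 in control breast muscle. Every deficient library was below every control, and the log2 change was -0.68 ± 0.12 (adjusted p = 0.00321 by limma). KLHL11, on chromosome 27 (4698639 to 4700783), had 3.59, 3.66, 3.15, 3.95 and 3.73 in deficient and 5.61, 6.16, 5.13, 5.11 and 4.36 scaled FPKM in control libraries, again with no overlap. Its log2 change was -0.44 ± 0.09 (adjusted p = 0.00638), while KLHL10, 1277 bases away, had -0.21 (adjusted p = 0.148). KLHL5 averaged 8.07 ± 1.01 in deficient and 10.8 ± 1.70 in control breast muscle (log2 change -0.37, adjusted p = 0.0413), with overlap. For KLHL5 the removal of any of 7 libraries ended the call, with adjusted p = 0.0900 without breast control 2. Of the 2 annotated KLHL6 transcripts the longer one carried most of its level, with 1.54 ± 0.27 in deficient and 2.90 ± 0.78 scaled FPKM in control breast muscle (SD, n = 5 each).

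Markers of leukocytes moved with these falls. Of 11 macrophage markers 10 were called lower, with a median log2 change of -1.25 and sums of 947 to 1093 in deficient and 1699 to 2068 scaled FPKM in control breast muscle. All 3 tested B cell markers were called lower, with sums of 7.08 to 20.6 over 6 genes in deficient and 24.8 to 42.3 in control breast muscle, and 1 of the 6 was at 0 in every breast library. Of the T and NK cell markers 3 of 7 and of the heterophil markers 6 of 7 were called lower, of fibroblast markers 3 of 7 and of endothelial markers 0 of 7. Their part in the falls of KLHL6, KLHL11 and KLHL5 was not tested.

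The 55 tested members with no call in breast muscle had log2 changes between -0.43 and 0.59. The nearest to the threshold were FBXW8, a CUL7 partner in mice, at 0.29 (adjusted p = 0.0513), the iron sensor FBXL5 at 0.38 (adjusted p = 0.0561) and FBXW5 at 0.46 (adjusted p = 0.0622), all by limma. FBXL5 averaged 13.9 ± 3.37 in deficient and 10.3 ± 0.65 scaled FPKM in control breast muscle, and KLHL23 4.71 ± 1.83 in deficient and 2.72 ± 0.82 in control breast muscle (SD, n = 5 each). FBXO45, a high member that works with the ligase PAM in neurons, averaged 23.6 ± 2.50 in deficient and 22.2 ± 3.08 in control breast muscle, with a 95% interval of the log2 change from -0.15 to 0.33. FBXW7, the receptor of MYC and cyclin E, had 0.17 (interval -0.17 to 0.51) and FBXO7, a Parkinson-linked adaptor in humans, 0.06 (interval -0.14 to 0.25).

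Below the minimum in breast muscle were 19 members. They were ASB8, ASB18, FBXL12, FBXL13, FBXL16, FBXO2, FBXO15, FBXO16, FBXO41, FBXO43, FBXO47, KBTBD3, KLHL1, KLHL4, KLHL8, KLHL14, KLHL17, KLHL32 and KLHL38. Of these 19 KLHL38 and KLHL32 had all deficient libraries above all controls, where 8.89% of the genes tested in breast muscle did so. The share over genes below the minimum is not given. KLHL32 averaged 0.137 in deficient and 0.0551 scaled FPKM in control breast muscle, close to 0. Its mean read depth was 0.162 to 0.375 in deficient and 0.0248 to 0.330 in control libraries.

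In liver no member was called among 70 tested, and limma called 0% of all 10176 genes there. At an unadjusted p under 0.05 stood 4 members, where 8.33% of all genes did. No member had groups that did not overlap, where 0.943% of all genes were apart and higher and 0.924% apart and lower. None was called under other variance models, library weights or scalings, or without any single library. FBXO21, an F-box protein of antiviral and p38 signalling in human cells, had 15.7, 9.64, 12.1, 11.5 and 8.12 scaled FPKM in deficient and 8.98, 8.51, 9.40, 5.43 and 5.32 in control liver. The diets overlapped through deficient 5, and the log2 change of 0.55 had an interval from 0.11 to 0.98 (adjusted p = 0.462 by limma). The others were FBXO48 at 0.34, KBTBD4 at 0.22 and ASB9 at -0.53 (adjusted p = 0.462, 0.512 and 0.581). ASB9 had 23.7, 16.6, 22.9, 29.4 and 20.1 in deficient and 42.4, 40.8, 41.6, 25.8 and 19.1 scaled FPKM in control liver. Controls 1 to 3 were high, and controls 4 and 5 lay among the deficient libraries.

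The difference of the diet effects, breast muscle minus liver, was tested for the 64 members measured in both tissues. It was called for 6 of them, where 9.24% of all genes were called. In 5 the breast effect was the higher and in 1 the lower, where 3.98% of 9135 genes were called higher and 5.25% lower. At an unadjusted p under 0.05 stood 14, where 25.3% of all genes did. For ASB2 the difference was 1.59 (95% interval 0.89 to 2.29, adjusted p = 0.00801 by limma), from 1.50 in breast muscle and -0.09 in liver. For KLHL24 it was 0.97 (0.59 to 1.34, adjusted p = 0.00387), from 1.04 and 0.08, and for KLHL22 0.82 (0.40 to 1.24, adjusted p = 0.0170), from 0.79 and -0.02. In liver KLHL22 had 6.11, 4.52, 7.29, 6.85 and 6.28 scaled FPKM on the deficient and 7.20, 8.05, 6.69, 4.68 and 5.22 on the control diet, with each diet spread through the other. FBXO9 differed by 0.70 (adjusted p = 0.0368) and FBXW11 by 0.50 (adjusted p = 0.0324). KLHL11 differed by -0.63 (adjusted p = 0.0214), with -0.44 in breast muscle and 0.19 in liver.

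**Figure D4:**
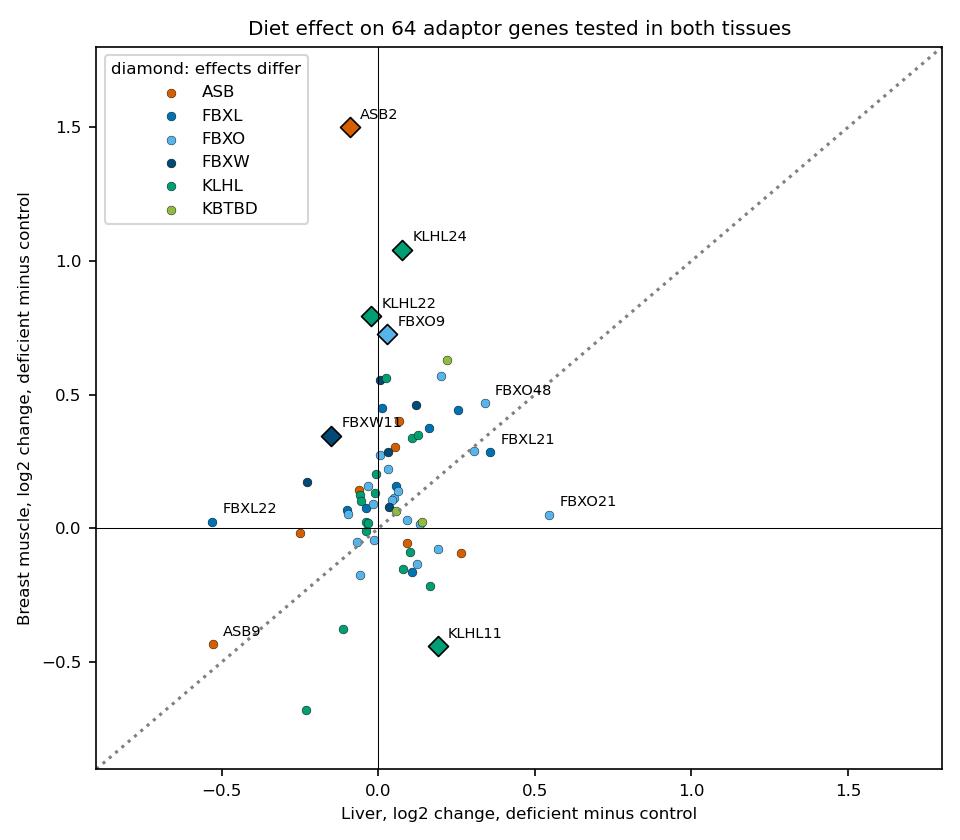
Diet effect on 64 members, log2 change deficient minus control, in liver on the x axis and in breast muscle on the y axis, with equal effects along the dotted line. Diamonds mark the 6 members whose effects differed between tissues, ASB2, KLHL24, KLHL22, FBXO9 and FBXW11 above the line and KLHL11 below it; without scaling 2 differences are called higher and 7 lower.

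Most of these differences were sensitive to single libraries or to the scaling. The removal of any of 11 libraries ended the FBXO9 call and of any of 7 the FBXW11 call (adjusted p = 0.0791 and 0.0703 without breast control 2). Both calls also ended with liver control 4 and liver deficient 1 left out together (adjusted p = 0.0503 and 0.0521). The KLHL11 call was lost without breast control 2 (adjusted p = 0.0502), and leaving that library out gave 3 calls in place of 6. There 165 of all 9088 genes were called higher and 290 lower. Without scaling the KLHL22 call was lost (adjusted p = 0.104), and the 9 calls were 2 higher and 7 lower, with a median over all genes of -0.30. Of all 9135 genes 71 were then called higher and 1790 lower. KLHL24 was called under all alternatives tried, and ASB2 under all that tested it. The filter at 5 FPKM left ASB2 untested, since its liver mean was 1.36. The 17 members tested in breast muscle alone, KLHL31, ASB4 and ASB11 among them, had a mean below 1 in liver and have no such test.

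Like most genes, most members differed in level between breast muscle and liver on each diet, with all 20 libraries scaled together. Of 83 members tested 38 were higher in breast muscle and 21 lower on the deficient diet, where 36.2% of 10760 genes were higher and 37.4% lower. On the control diet 33 were higher and 25 lower, where 33.8% were higher and 35.8% lower. Without scaling 41 were higher and 19 lower on the control diet, where 4432 of the 10760 genes were higher and 2945 lower. On the deficient diet 34 were then higher and 26 lower, where 3174 genes were higher and 4559 lower. Called either way were 59 members on the deficient diet, where 73.6% of all genes were, and 58 on the control diet, where 69.6% were. The libraries of the tissues lay apart for 35 members higher in breast muscle and 17 lower on the deficient diet (28.8% and 29.4% of all genes), and for 28 and 21 on the control diet (28.2% and 29.9%). ASB genes were higher in breast muscle in 9 of 14 cases on either diet, KLHL genes in 14 of 26 and KBTBD genes in 4 of 6. F-box genes were higher in 11 of 37 cases on the deficient diet and in 6 of 37 on the control diet, and lower in 10 and 13.

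On the log2(scaled FPKM + 1) scale KLHL31 had the largest difference towards breast muscle on the control diet. It had 54.4 ± 14.9 in breast muscle and 0.180 ± 0.136 FPKM in liver (SD, n = 5 each), a log2 difference of 5.51 ± 0.16 (adjusted p = 9.14e-17 by limma). KBTBD5 had 36.0 ± 8.82 in breast muscle and 0.0401 ± 0.0528 in liver, a log2 difference of 5.12. KLHL30 had 19.4 ± 4.29 in breast muscle and 0.0179 ± 0.0272 in liver, a difference of 4.30. The ASB genes followed, with log2 differences of 4.15 for ASB2, 3.75 for ASB4, 3.49 for ASB10 and 3.40 for ASB14, and KLHL34 stood at 3.44. None of these 8 overlapped between tissues, and all 8 were called on the deficient diet too. They were chosen by the size of this difference, and all but ASB2 had a liver mean below 1. Those passed the minimum for a test through breast muscle alone, so neither observation is separate support. Their order depends on the added 1, which holds down differences of genes near 0 in liver. Over the alternatives tried the log2 difference reached 8.04 for KBTBD5, 7.70 for KLHL31 and 7.37 for KLHL30. Liver control 1, which had the high myocyte sum, held 0.346 scaled FPKM of KLHL31, where liver control 3 had 0.283 and the remaining 8 liver libraries had less.

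In the other direction FBXL12 had 0.194 ± 0.433 in breast muscle and 522 ± 77.2 FPKM in liver on the control diet, a log2 difference of -8.82, with the doubt about its short model given above. ASB9 had 2.08 ± 0.47 in breast muscle and 34.4 ± 11.1 in liver, a log2 difference of -3.47 ± 0.21 (adjusted p = 9.21e-12 by limma). ASB9 and ASB11 are direct neighbours on chromosome 1, 13425 bases apart, and ASB11 was listed at 0 in all 10 liver libraries. KLHL3, which targets WNK kinases of salt transport in humans, had 1.48 ± 0.18 in breast muscle and 13.8 ± 6.26 in liver (log2 difference -2.48). FBXO8 stood at -2.30, KLHL4 at -2.23, FBXL5, the iron-sensing receptor of the iron regulatory proteins, at -1.21, the helicase FBXO18 at -1.20 and KBTBD8 at -1.0. All 8 were called lower on the deficient diet as well. These 8 too were chosen by the size of the difference on the control diet. FBXL12 and KLHL4 had a breast mean below 1 and passed the minimum through liver alone.

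Among the scaffolds and switches of the ligases more genes were called higher than lower in deficient breast muscle. Of 11 tested cullins and core subunits 5 were called higher and 0 lower, with a median log2 change of 0.39, and without scaling 0 were called, with a median of 0.079. Without breast control 2 the count was 3 higher, with RNF7 and DDB1 lost (adjusted p = 0.0802 and 0.106). CUL3, the scaffold of the Kelch adaptors, averaged 54.6 ± 7.04 in deficient and 35.5 ± 5.38 scaled FPKM in control breast muscle (SD, n = 5 each, log2 change 0.61, adjusted p = 0.00665 by limma, 0.0664 without scaling). CUL2 changed by 0.47, CUL4A by 0.50, RNF7, the RING subunit that pairs with CUL5, by 0.47 and DDB1 by 0.39. The scaffolds of the other families were not called, with log2 changes of 0.23 for CUL1 (adjusted p = 0.0529) and 0.59 for CUL5 (adjusted p = 0.0532), and SKP1 had 0.19 (adjusted p = 0.104). Of 25 genes of NEDD8 conjugation and cullin regulation 18 were called higher and 1 lower, with a median of 0.50. Without scaling 6 were called higher and 1 lower, with a median of 0.17. DCUN1D2, a NEDD8 ligase subunit, averaged 7.52 ± 0.71 in deficient and 4.94 ± 0.51 in control breast muscle (log2 change 0.52, adjusted p = 0.00264, 0.0615 without scaling). SENP8, the NEDD8 protease, changed by 0.75 and the ubiquitin-conjugating CDC34 by 0.54.

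CAND1, which exchanges F-box adaptors on CUL1, was the 1 that fell. It averaged 6.52 ± 0.43 in deficient and 8.85 ± 0.29 scaled FPKM in control breast muscle (log2 change -0.39, adjusted p = 0.00291 by limma). Its relative CAND2, a muscle form in mice, averaged 64.6 ± 14.8 in deficient and 37.3 ± 8.41 in control breast muscle (SD, n = 5 each), a log2 change of 0.78 (adjusted p = 0.0140), and was named after its value was seen. In liver 0 genes of either list were called. The same shares over all genes in breast muscle were 14.2% higher and 13.9% lower. Without scaling 323 of the 10164 genes were called higher and 3188 lower.

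**Figure D5:**
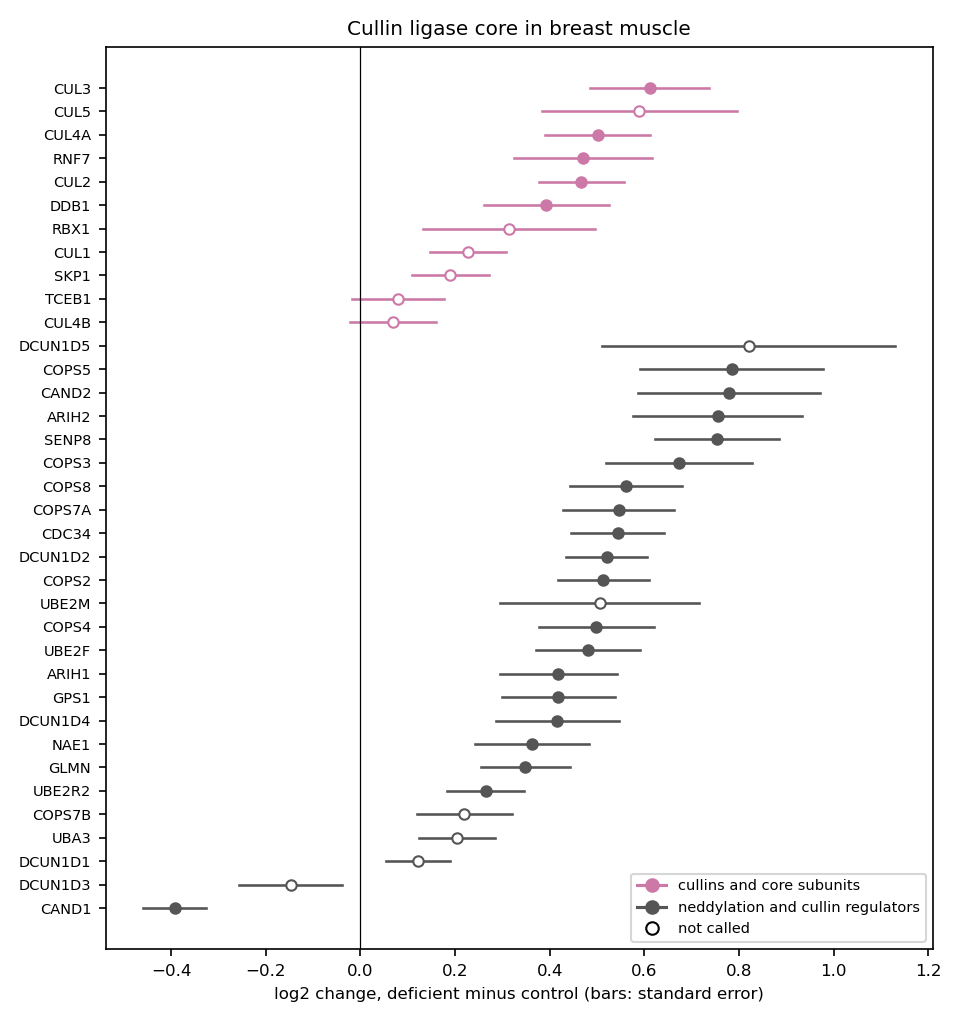
Log2 change in breast muscle, deficient minus control, of 11 cullins and core subunits and 25 genes of NEDD8 conjugation and cullin regulation, with standard errors; filled points passed the adjusted p threshold. Of the 36 genes 23 filled points lie right of 0 and CAND1 lies left of it. Without scaling 6 genes are called higher and CAND1 lower, where 323 of all 10164 genes are called higher and 3188 lower.

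Adaptors outside the rule and known targets moved in both directions. Of 51 other tested cullin adaptors 13 were called higher and 6 lower, with a median log2 change of 0.07, and without scaling 2 were higher and 18 lower. Over all 10164 genes 14.2% were called higher and 13.9% lower, and without scaling 323 were higher and 3188 lower. Without breast control 2 the calls were 8 higher and 4 lower, where 845 of all 10087 genes were higher and 996 lower. RHOBTB3 averaged 4.05 ± 1.02 in deficient and 0.681 ± 0.282 scaled FPKM in control breast muscle (log2 change 1.58, adjusted p = 0.000690 by limma). SOCS3, the brake on cytokine signalling, averaged 3.96 ± 2.25 in deficient and 17.6 ± 5.34 in control breast muscle (SD, n = 5 each), with adjusted p = 0.00291. Cereblon, CRBN, changed by 0.42 (0.13 and not called without scaling) and KCTD12 by -0.80. Of 33 reported substrates or partners of the members, tested on 34 identifiers because RBPMS has 2, 5 were called higher and 7 lower. These were 14.7% and 20.6%, where 14.2% and 13.9% of all genes were called. Without scaling 0 were called higher and 14 lower, and leaving out breast control 2 gave 1 higher and 5 lower. CKB, a target of ASB9, had -0.74, MYC, a target of FBXW7, -0.68, SMURF1 -0.50 and CRY1, a target of FBXL21, 0.48 (0.17 and not called without scaling). The 3 genes left out by the rule, FBXO30, FBXO32 and FBXO40, were all called higher (0.68, 1.09 and 1.34). In liver no gene of these lists was called.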

How the data were processed

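The 20 libraries, 5 per tissue and diet, were made from total RNA of pectoralis major or liver with an Illumina TruSeq kit, per the labels' protocols. The authors deposited FPKM per gene and per isoform in the Cufflinks tracking format, and per the file headers the isoform files add a coverage signal, the mean read depth over a transcript. Per the submitters' processing notes TopHat2 2.0.9, Bowtie 1.0.0, Cufflinks 2.1.1, Cuffdiff 2.1.1 and the galGal4 build were used, with no role given for each. The deposited values hold no read counts, so no count model was fitted, and whether counting used strand is not given in the sources used here. The annotated spans of 13 members overlap another gene, whose reads may be shared: FBXL13, FBXO7, FBXW5, ASB4, KLHL14, KLHL17, ASB3, KLHL9, KLHL2, FBXL5, FBXL15, FBXL17 and ASB8.

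FPKM were divided by median-ratio factors, taken within a tissue for diet and over all 20 libraries for tissue comparisons. Genes whose scaled FPKM averaged 1 or more were fitted as log2(scaled FPKM + 1) with limma 3.58.1 (mean-variance trend, R 4.3.3), two-sided, with Benjamini-Hochberg adjustment over all genes tested. Diet was fitted per tissue, and the tissue contrasts and the difference of the diet effects in models with 4 group means. Libraries of 1 group were taken as separate birds. On simulated data with these spreads, a log2 change of 1 was called for 88% of changed genes in breast muscle and 73% in liver, and one of 0.5 for 38% and 36%. The changed genes were drawn only from levels well above the minimum for a test, so these shares do not cover the lowest members. In breast muscle 100 genes of each size were changed among 10164, where 28.1% were called in the real data.

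Members named by rule are all those called by diet or for the tissue difference, the 8 highest in each tissue, the 8 largest tissue differences each way and members with an outlying library. Some further members, such as FBXW8, FBXO21 and KLHL38, were named after their values were seen. Of the other lists, genes called by diet with the 4 smallest p were taken, and further ones were named after their values were seen. Members and lists were chosen with earlier results of these data known. Of 258 list entries 211 were found by symbol.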

Additional observations from a re-analysis of the deposited data

Results flagged for a closer look

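Single libraries stood apart from their group of 5 in 7 of 128 groups examined for named members, and chance gives about 1 in 20. Breast deficient 3 was far above its group for ASB4, at 64.4 scaled FPKM against 27.0 to 37.4 in the others, and for FBXO4, at 6.33 against 5.12 to 5.45. In deficient liver, library 5 had 14.6 scaled FPKM of FBXO4 against 3.46 to 5.37, and library 3 had 17.9 of FBXL21 against 8.45 to 11.1. In control breast muscle, library 5 had 9.28 of FBXO48 against 7.03 to 7.51, library 2 had 7.32 of KLHL22 against 10.5 to 11.3, and library 3 had 7.87 of KLHL5 against 11 to 12.1.

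For 6 of 64 members the diet effects differed between the tissues by the test of the difference itself, near the 9.24% called over all genes. Differences are given as breast effect minus liver effect on the log2 scale. The difference was 1.59 for ASB2, 0.97 for KLHL24, 0.82 for KLHL22, 0.70 for FBXO9, 0.50 for FBXW11 and -0.63 for KLHL11. Removal of any of 11 single libraries ended the FBXO9 call, of any of 7 the FBXW11 call and of 1 the KLHL11 call. The KLHL22 call was lost without scaling.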

How the results depend on the processing

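The counts of called members by diet in breast muscle (26), in liver (0) and for the difference between tissues (6) moved as follows. Without scaling breast muscle gave 17, and at an adjusted p under 0.01 it gave 12 and the difference 2. With no filter on low values the difference gave 12. With a filter at 5 FPKM the tissue contrasts gave 35 calls on the deficient diet, in place of 59, and 34 on the control diet, in place of 58, with fewer members tested. Without scaling the log2 changes of FBXL21, FBXO28 and FBXO3 turned to -0.018, -0.070 and -0.037. Leaving out 1 library at a time gave 16 to 29 in breast muscle, 0 to 0 in liver, 3 to 8 for the difference, 57 to 60 between tissues on the deficient and 55 to 58 on the control diet. The lowest values of 16 and 3 came without breast control 2. Of the 26 breast calls 16 held without any single library, and 12 also held under every other setting that tested them. The stricter adjusted p under 0.01 was counted as a setting and by itself left these 12. The count of 12 therefore restates that threshold. KLHL33 was lost only there (adjusted p = 0.0138 by limma). Among these 12, ASB11, KBTBD13, KLHL11 and KLHL6 were not tested with the filter at 5 FPKM. Among all genes called in breast muscle 50.5% were higher, 9.20% without scaling, 40.8% with upper-quartile scaling and 63.1% with a filter at 5 FPKM.

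Same-numbered libraries were not treated as pairs, since the labels give no pairs and the correlation of their deviations was not above 0.1 in every pair. That rule cannot decide whether a breast and a liver library share a bird. Between diets it was -0.07 to 0.10 in breast muscle (different numbers -0.18 to 0.27) and -0.21 to 0.06 in liver (different numbers -0.18 to 0.30). Between tissues it was -0.01 to 0.16 on the deficient diet (different numbers -0.10 to 0.06) and 0.06 to 0.12 on the control diet (different numbers -0.12 to 0.09). There 7 of 10 libraries on the deficient and 8 of 10 on the control diet correlated best with their own number, a hint from the data and not the design; between diets 2 of 10 in breast muscle and 0 of 10 in liver did. With the replicate number as a block across diets, 20 members were called in breast muscle and 0 in liver. The other comparisons took a breast and a liver library of the same diet and number as a block. They gave 4 calls for the difference, 59 between tissues on the deficient and 56 on the control diet. The differences of FBXO9 and FBXW11 were not called there (adjusted p = 0.0717 and 0.0591).

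Depth is known only as coverage, so low members such as KLHL33 carry a counting error that could not be computed, and 5 libraries per group left many changes of 0.5 on the log2 scale uncalled in simulated data. The cause of the moved values was not tested.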
